A study of Caenorhabditis elegans with 14 samples.

Results

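The 9 genes described here are eat-6 and catp-1 to catp-8 of Caenorhabditis elegans, which encode P-type ATPases, membrane pumps that spend ATP to move ions or other charged molecules. They were taken by gene name from a table of 41875 gene entries, and all 9 were found there. The family was chosen by the fold change of catp-3, which was among the largest rises in worms labelled pycr-1(wrm22), in total and in polysomal RNA alike. The values of catp-3 between the strains are therefore given as a description with no test, while the other members entered by family name.

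RNA was sequenced from synchronized gravid worms of wild-type Bristol N2 and of a strain labelled pycr-1(wrm22), both grown at 20 °C on OP50 bacteria and harvested on day 1 of adulthood, about 12000 worms per genotype and replicate. The enzyme made from pycr-1, pyrroline-5-carboxylate reductase, completes proline synthesis, and the labels do not say what the allele wrm22 changes. Total RNA came from the whole-worm lysate, and polysomal RNA came from sucrose gradient fractions holding mRNA with 3 or more ribosomes. All worms were washed and lysed in cycloheximide, which holds ribosomes on mRNA. There were 3 wild-type and 4 mutant-labelled libraries of each kind, 14 in all. The authors' deposited table gives 1 pooled FPKM (a fragment number divided by transcript length and by sequencing yield) for each gene and group and no value per library, so the depth and the values of single libraries are unknown. The FPKM values, log2 fold changes and adjusted p-values below are the authors' own from Cuffdiff, and a gene passed the test at an adjusted p under 0.05. An error after ± is the standard error on the log2 scale that follows from the deposited test statistic and the 3 or 4 libraries of each group.

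The Na+/K+-ATPase keeps sodium low and potassium high inside animal cells. Its catalytic alpha subunit is a P-type ATPase, and a beta subunit helps it to fold and to reach the plasma membrane. In worms eat-6 is the best known alpha subunit gene, named for the weak pharyngeal pumping and poor feeding of its mutants. By textbook family assignment only 5 of the 9 genes, eat-6 and catp-1 to catp-4, belong to this Na+/K+ type. The other 4, catp-5 to catp-8, belong to the P5 type of P-type ATPases, whose members handle polyamines or act in the endoplasmic reticulum. In the gene ontology column of the table, 2 entries in all carried sodium:potassium-exchanging ATPase activity, and these were eat-6 and catp-4. The 4 genes catp-5 to catp-8 carried a calcium-transporting ATPase term there, and catp-1, catp-2 and catp-3 carried neither term.

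On the WBcel235 build, in the Ensembl annotation, catp-3 lies on the plus strand of chromosome V, from 8076012 to 8079916, with 8 exons and 1054 codons. No other annotated gene overlaps it. The genes eat-6 and catp-2 are also on chromosome V, from 13126414 to 13129995 on the minus strand and from 4934706 to 4939085 on the plus strand. The gene catp-4 lies on the plus strand of chromosome II from 14593581 to 14597657, and catp-1 on the minus strand of chromosome I from 14436810 to 14451889. Of the P5-type genes, catp-6, catp-7 and catp-8 are on chromosome IV and catp-5 is on chromosome X. The 5 Na+/K+-type genes therefore do not form a cluster. The coding sequences of all 9 genes span 996 codons in eat-6 to 1267 in catp-6. How reads shared between similar genes were assigned is not given in the sources used here.

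The transcript of the targeted gene pycr-1, listed under its sequence name M153.1, was present in every group, at 4.91 FPKM in wild-type total, 12.6 in wild-type polysomal, 20.3 in mutant-labelled total and 40.8 in mutant-labelled polysomal RNA. It was thus higher in the mutant-labelled strain in both fractions, by 2.05 ± 0.20 in total RNA and 1.70 in polysomal RNA on the log2 scale. These levels do not show a loss of the transcript, and the directions below rest on the labels.

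catp-3 was expressed at 6.39 FPKM in wild-type total RNA and 7.13 in wild-type polysomal RNA. In the mutant-labelled strain it stood at 74.03 FPKM in total and 100.2 in polysomal RNA. Both mutant-labelled groups were far above both wild-type groups. Among entries above 0 FPKM, its level moved from percentile 57.3 to 92.4 in total RNA and from 56.7 to 93.5 in polysomal RNA. The log2 fold change was 3.53 ± 0.16 in total RNA, an 11.6-fold difference, and 3.81 ± 0.17 in polysomal RNA, a 14.1-fold difference. Among tested genes with a finite fold change, a larger rise was listed for 36 of 15496 in total RNA and for 22 of 14663 in polysomal RNA. Among genes with at least 1 FPKM in the wild type these numbers were 7 of 12645 and 4 of 12140. Among the tested members the next largest was catp-4, at 0.80 and 0.64. As whole worms were sequenced, more cells of a type and more RNA per cell cannot be told apart.

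**Figure D1:**
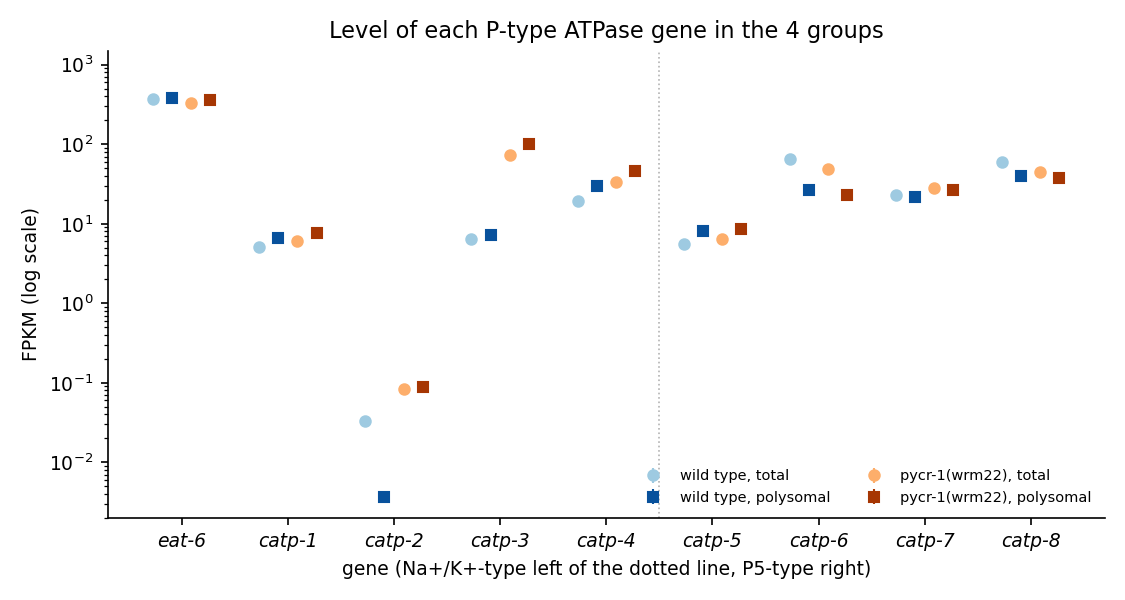
Deposited FPKM (log scale) of the 9 genes in the 4 groups, with circles for total and squares for polysomal RNA, and bars of 1 standard error that are mostly smaller than the symbols (none for catp-2). The catp-3 points separate by strain, from 6.39 and 7.13 FPKM in the wild type to 74.03 and 100.2 in the mutant-labelled strain, while eat-6 is the highest gene in every group.

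Among the tested alpha subunit genes, eat-6, catp-1 and catp-4 differed much less than catp-3. eat-6 was at 368.7 FPKM in wild-type total, 384.9 in wild-type polysomal, 331.2 in mutant-labelled total and 355.1 in mutant-labelled polysomal RNA. Its strain difference did not pass the test in either fraction, at -0.15 ± 0.15 in total RNA (the authors' adjusted p = 0.400, 95% interval -0.45 to 0.14) and -0.12 ± 0.15 in polysomal RNA (the authors' adjusted p = 0.542, interval -0.41 to 0.18). Over both fractions the intervals of this main alpha subunit transcript reach from -0.45 to 0.18.

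catp-4 was higher in the mutant-labelled strain in both fractions. Its level was 19.1 FPKM in wild-type total and 33.4 in mutant-labelled total RNA, and 29.9 in wild-type polysomal and 46.5 in mutant-labelled polysomal RNA. It rose by 0.80 ± 0.15 in total RNA and by 0.64 ± 0.15 in polysomal RNA on the log2 scale (the authors' adjusted p = 0.000207 in each). That is the smallest adjusted p in the table, and 24.1% of all its tests share it.

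catp-1, which in worms is known from a screen for the developmental response to a nicotinic agonist, was a low gene in every group. It stood at 5.12 and 6.68 FPKM in wild-type total and polysomal RNA and at 6.15 and 7.75 in the mutant-labelled strain. Neither strain difference passed the test, at 0.26 ± 0.20 in total RNA (the authors' adjusted p = 0.267) and 0.21 ± 0.21 in polysomal RNA (the authors' adjusted p = 0.398). catp-2 was close to absent, at 0.0330 FPKM in wild-type total, 0.00361 in wild-type polysomal, 0.0841 in mutant-labelled total and 0.0878 in mutant-labelled polysomal RNA. The authors did not test it in any comparison, and no fold change is given for such levels.

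The 4 P5-type genes showed small or no strain differences. catp-6 is related to human ATP13A2, a lysosomal polyamine exporter. It was at 65.2 FPKM in wild-type total and 48.6 in mutant-labelled total RNA, and at 26.6 and 23.0 in polysomal RNA. It fell by 0.42 ± 0.15 on the log2 scale in total RNA (the authors' adjusted p = 0.0136), and in polysomal RNA its difference of -0.21 ± 0.15 did not pass the test (adjusted p = 0.258). catp-8 belongs to the branch whose human member ATP13A1 removes misplaced proteins from the endoplasmic reticulum membrane. Its levels were 59.8 and 44.5 FPKM in wild-type and mutant-labelled total RNA and 40.4 and 38.1 in polysomal RNA. The fall of catp-8 was 0.43 ± 0.17 in total RNA (log2 fold change -0.43, the authors' adjusted p = 0.0286), and its difference in polysomal RNA was -0.08 ± 0.16 (adjusted p = 0.687).

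catp-5, which takes part in polyamine uptake in the worm intestine, stood at 5.64 and 6.46 FPKM in wild-type and mutant-labelled total RNA and at 8.04 and 8.52 in polysomal RNA. Its strain differences of 0.20 ± 0.17 (the authors' adjusted p = 0.329) and 0.08 ± 0.16 (the authors' adjusted p = 0.685) did not pass the test. catp-7 was at 22.9 and 27.8 FPKM in total RNA and at 21.5 and 26.8 in polysomal RNA. Its differences of 0.28 ± 0.15 (the authors' adjusted p = 0.108) and 0.32 ± 0.15 (the authors' adjusted p = 0.0669) also missed the threshold.

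Leaving catp-3 aside, 1 of the 7 tested members rose and 2 fell in total RNA, where 46.5% of all 15557 tested genes were called, 18.6% higher and 27.9% lower. In polysomal RNA, 1 of 7 rose and 0 fell, where 38.7% of 14696 tested genes were called, 14.8% higher and 23.9% lower. Counts this small lie near those backgrounds. The median member had a log2 fold change of 0.20 in total and 0.08 in polysomal RNA. Over all tested genes with a finite fold change the median was -0.04 and -0.07.

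These small differences depend on the level taken as reference. Whether library scaling or a shift of many genes lies behind the medians below was not tested. Among genes with at least 5 FPKM in both groups, the median log2 fold change was -0.35 in total and -0.26 in polysomal RNA. Relative to that median gene, catp-3 was higher by 3.88 and 4.07 and catp-4 by 1.15 and 0.89. On that scale catp-1 was at 0.62 and 0.47, catp-5 at 0.55 and 0.34 and catp-7 at 0.63 and 0.57, and the median of the 7 members was 0.55 and 0.34. The falls of catp-6 and catp-8 in total RNA shrink to -0.07 each on that scale, so they were close to the median gene. The sign of eat-6 turned to 0.20 and 0.14, and in polysomal RNA catp-6 turned to 0.05 and catp-8 to 0.17.

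**Figure D2:**
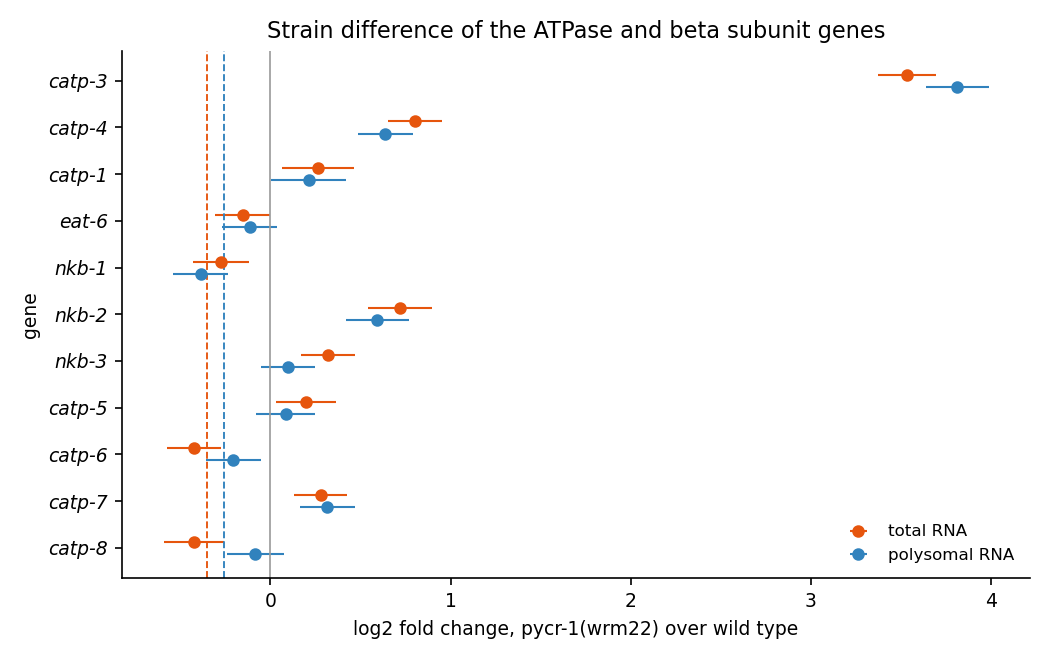
Deposited log2 fold change between the strains for the tested members and the 3 beta subunit genes, in total RNA (orange) and polysomal RNA (blue), with bars of 1 standard error and dashed lines at the median of genes with at least 5 FPKM (-0.35 and -0.26). catp-3 sits near 3.53 and 3.81 and catp-4 and nkb-2 between 0.59 and 0.80; relative to the dashed lines, the signs of eat-6 in both fractions, of nkb-1 in total RNA and of catp-6 and catp-8 in polysomal RNA turn positive.

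The order of the genes by level changed with catp-3. In the wild type, catp-3 ranked below catp-4 and within 2 standard errors of catp-5 and of catp-1 in both fractions. In both mutant-labelled groups it was the second highest gene, below eat-6 by 2.16 ± 0.15 in total and 1.83 ± 0.16 in polysomal RNA on the log2 FPKM scale. The gap down to the next gene was 0.61 ± 0.15 to catp-6 in total RNA and 1.11 ± 0.14 to catp-4 in polysomal RNA. Neighbours in the order that lay within 2 standard errors of each other were catp-6 and catp-8, and catp-7 and catp-4, in both total RNA groups. The same held for catp-6 and catp-7 in both polysomal groups, for catp-4 and catp-6 in wild-type polysomal RNA, and for catp-5 and catp-1 in every group but wild-type polysomal RNA, where catp-3 stood between them.

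Because FPKM is scaled by transcript length, the 5 alpha-type genes can be added up as shares of their joint transcript level. In wild-type total RNA, eat-6 held 92.3% of the sum, catp-4 4.79%, catp-3 1.60 ± 0.17% and catp-1 1.28%. In wild-type polysomal RNA the catp-3 share was 1.66 ± 0.19% and that of eat-6 89.8%. In the mutant-labelled strain the share of catp-3 was 16.6 ± 1.4% in total and 19.7 ± 1.6% in polysomal RNA. That of eat-6 was 74.5% and 69.7%, with catp-4 at 7.505% and 9.13%. The sum itself was 399 FPKM in wild-type total, 429 in wild-type polysomal, 445 in mutant-labelled total and 510 in mutant-labelled polysomal RNA. The mix of alpha-type transcripts therefore differed mainly through catp-3, whose difference was the ground for choosing the family. The share errors cover the spread of single genes only, treated as independent.

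**Figure D3:**
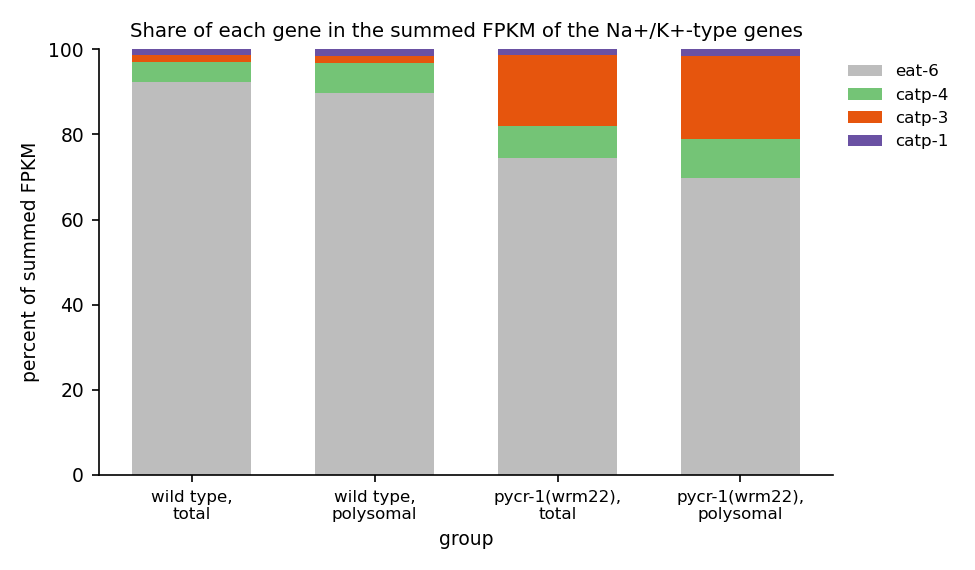
Stacked bars of the percent of the summed FPKM of eat-6 and catp-1 to catp-4 that each gene holds in the 4 groups (catp-2 is under 0.02% and not drawn). The catp-3 segment is 1.60% and 1.66% in the wild type and 16.6% and 19.7% in the mutant-labelled strain.

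None of the beta subunit genes differed as much as catp-3 between the strains. nkb-1, whose entry in the table is shared with C17E4.6, was at 128 FPKM in wild-type total, 191 in wild-type polysomal, 106 in mutant-labelled total and 146 in mutant-labelled polysomal RNA. It fell by 0.39 ± 0.15 on the log2 scale in polysomal RNA (the authors' adjusted p = 0.0239), and its difference of -0.28 ± 0.16 in total RNA did not pass the test (adjusted p = 0.135); relative to the median gene these values were -0.13 and 0.07. nkb-2 was at 10.9, 16.4, 18.02 and 24.8 FPKM in the same order of groups. It rose by 0.72 ± 0.18 in total RNA (the authors' adjusted p = 0.000393) and by 0.59 ± 0.18 in polysomal RNA (the authors' adjusted p = 0.00332), close in size to catp-4.

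nkb-3 was at 47.5, 64.5, 59.3 and 69.0 FPKM, and its differences of 0.32 ± 0.15 and 0.10 ± 0.15 did not pass the test (the authors' adjusted p = 0.0674 and 0.606). The summed beta level in total RNA was 187 FPKM in the wild type and 183 in the mutant-labelled strain, and 272 and 240 in polysomal RNA. On the deposited FPKM scale, the alpha sum was higher in the mutant-labelled strain only with catp-3, the gene chosen for its rise. The alpha and beta sums were not set against the median gene. On that scale eat-6, the largest part of the alpha sum, was at 0.20 in total and 0.14 in polysomal RNA. Without catp-3 the alpha sum was 393 FPKM in the wild type and 371 in the mutant-labelled strain in total RNA, and 421 and 409 in polysomal RNA.

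The comparison of polysomal with total RNA within a strain shares libraries with the strain comparisons. The levels of catp-3 that led to its choice enter here too, so its values are again given with no test. A positive value means a larger part of the polysomal than of the total RNA and is relative to all other transcripts. The median gene with at least 5 FPKM was at 0.04 in the wild type and 0.11 in the mutant-labelled strain. In the wild type 2 of the 7 tested members other than catp-3 were higher in polysomal RNA and 2 were lower, where 51.6% of 15266 tested genes were called, 24.7% higher and 26.9% lower. In the mutant-labelled strain 2 of 7 were higher and 1 was lower, where 50.8% of 15425 tested genes were called, 23.9% higher and 27.0% lower.

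catp-4 and catp-5 were higher in polysomal than in total RNA in both strains. catp-4 was higher by 0.64 ± 0.16 in the wild type (the authors' adjusted p = 0.000393) and by 0.48 ± 0.15 in the mutant-labelled strain (the authors' adjusted p = 0.00292). For catp-5 the values were 0.51 ± 0.18 (the authors' adjusted p = 0.0109) and 0.40 ± 0.15 (the authors' adjusted p = 0.0238). The deposited value of catp-3 was 0.16 ± 0.18 in the wild type and 0.44 ± 0.15 in the mutant-labelled strain. Those catp-3 values differ by 0.28 ± 0.24, which is also the difference between its strain effects and is given with no test.

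catp-6 was the member with the lowest polysomal part, with log2 fold changes of -1.296 ± 0.157 in the wild type and -1.08 ± 0.14 in the mutant-labelled strain, each at an adjusted p of 0.000207. catp-8 was lower in the wild type, at -0.57 ± 0.17 (the authors' adjusted p = 0.00209), and its value of -0.22 ± 0.16 in the mutant-labelled strain did not pass the test (adjusted p = 0.223). eat-6, catp-1 and catp-7 passed in neither strain. eat-6 was at 0.06 and 0.10 (the authors' adjusted p = 0.748 and 0.601), catp-1 at 0.39 and 0.33 (adjusted p = 0.116 and 0.143), and catp-7 at -0.09 and -0.06 (adjusted p = 0.630 and 0.759). On the scale of the median gene eat-6 in the mutant-labelled strain turned to -0.01. All 3 beta subunit genes were higher in polysomal RNA of the wild type, between 0.44 ± 0.16 for nkb-3 and 0.59 ± 0.19 for nkb-2, and 2 of 3 passed in the mutant-labelled strain, nkb-1 at 0.47 and nkb-2 at 0.46.

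**Figure D4:**
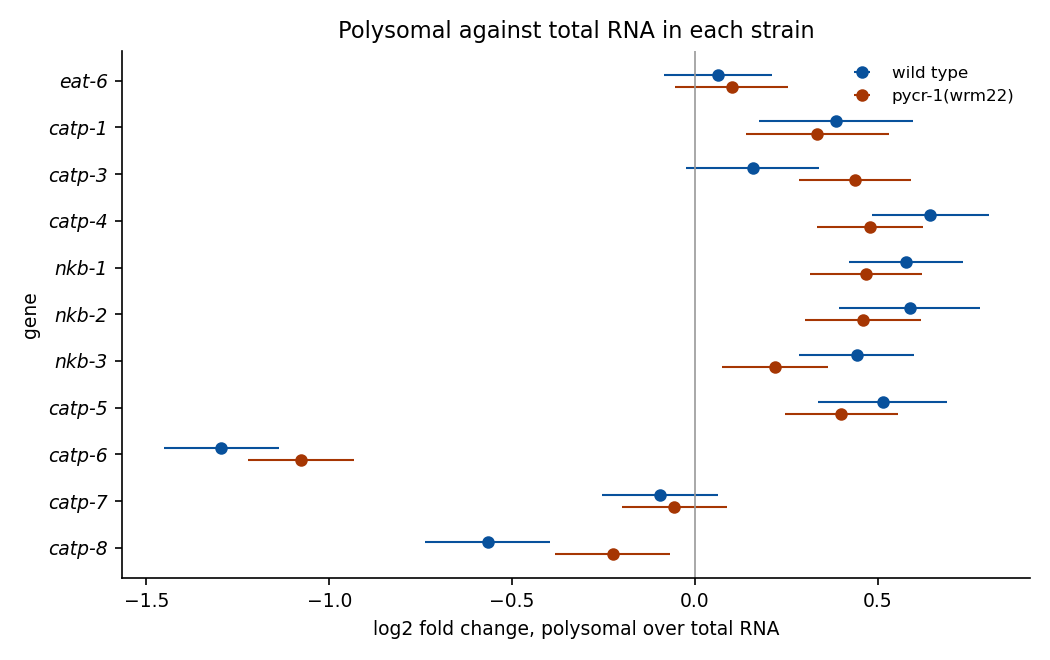
Deposited log2 fold change of polysomal over total RNA in the wild type (blue) and the mutant-labelled strain (brown) for the tested members and the beta subunit genes, with bars of 1 standard error. catp-6 stands apart at -1.296 and -1.08, while catp-4, catp-5 and the beta subunit genes lie to the right of 0.

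Whether the strain difference itself differed between the fractions was tested with a Wald test over 14116 genes, adjusted by Benjamini-Hochberg. At an adjusted p under 0.05 it called 0 of the 7 members other than catp-3 and 3 genes in all (0.0213%). With variances divided by library number it called 22 genes (0.156%) and again 0 of the 7. None of these 7 members had an unadjusted p under 0.05 in either form, against 32 and 548 genes in all. Polysomal minus total values ran from -0.16 ± 0.22 for catp-4 to 0.34 ± 0.23 for catp-8. The pass of catp-6 and catp-8 in total RNA and not in polysomal RNA is thus not shown to be a difference between the fractions.

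The counts of the 4 further gene lists are to be read against the calls over all tested genes, 18.6% higher and 27.9% lower in total RNA and 14.8% and 23.9% in polysomal RNA. Among 12 further P-type ATPases, 11 were tested, and 1 rose and 2 fell in each fraction. tat-2, a phospholipid flippase, rose by 0.75 ± 0.17 in total and 0.82 ± 0.18 in polysomal RNA (the authors' adjusted p = 0.000207 in each). The flippase tat-3 fell by 0.41 ± 0.15 and by 0.39 ± 0.15 (the authors' adjusted p = 0.0165 and 0.0207). The copper pump cua-1 fell by 0.45 ± 0.15 in total RNA (the authors' adjusted p = 0.00888) and was at -0.17 ± 0.15 in polysomal RNA (the authors' adjusted p = 0.351). The Golgi calcium pump pmr-1 fell by 0.48 ± 0.21 in polysomal RNA (the authors' adjusted p = 0.0436) and was at -0.42 ± 0.19 in total RNA (the authors' adjusted p = 0.0619). Relative to the median gene the falls of tat-3, cua-1 and pmr-1 are between -0.06 and -0.22, with cua-1 at 0.09 in polysomal RNA. The median of the list was -0.25 in total and -0.17 in polysomal RNA, and relative to the median gene it was 0.10 and 0.09.

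Among the sodium exchangers and cation-chloride cotransporters, 21 were tested, and 3 rose and 0 fell in each fraction. nhx-9, a sodium/proton exchanger, rose by 1.00 ± 0.19 in total and 0.52 ± 0.19 in polysomal RNA (the authors' adjusted p = 0.000207 and 0.0144). The related nhx-3 rose by 0.50 ± 0.19 and 0.57 ± 0.19 (the authors' adjusted p = 0.0197 and 0.00773). ncx-9, a sodium/calcium exchanger family gene below 0.46 FPKM in every group, rose by 1.43 and 1.00 (the authors' adjusted p = 0.00692 and 0.0337), with no standard error to be had. ncx-10 was at 0.79 ± 0.42 and -0.04 ± 0.37 (the authors' adjusted p = 0.0797 and 0.940). The share of rises was near that over all genes, with no falls. The median of the list was 0.16 in total and 0.06 in polysomal RNA, and relative to the median gene it was 0.51 and 0.32.

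Of 22 subunit genes of the vacuolar proton ATPase, 0 rose and 2 fell in total RNA, and 1 rose and 2 fell in polysomal RNA. The genes that fell were vha-18, by 0.72 ± 0.15 and 0.84 ± 0.17 (the authors' adjusted p = 0.000207 in each), and vha-7, by 0.61 ± 0.19 and 0.53 ± 0.19 (adjusted p = 0.00644 and 0.0107). Relative to the median gene these falls were -0.36 and -0.58 for vha-18 and -0.26 and -0.27 for vha-7. unc-32 and vha-13 were at -0.21 and -0.20 in total RNA (the authors' adjusted p = 0.238 and 0.269). The entry of vha-13 is shared with Y49A3A.3. The gene that rose in polysomal RNA was spe-5, at 0.66 ± 0.19 (the authors' adjusted p = 0.00359), named after its value was seen. The list median was -0.07 in total and -0.21 in polysomal RNA, and relative to the median gene it was 0.28 and 0.05.

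Polyamine synthesis was counted because catp-5 and catp-6 relate to polyamine transport. Of 4 tested genes, 0 changed in total RNA, and 1 fell in polysomal RNA. That gene was smd-1, the S-adenosylmethionine decarboxylase, which fell by 0.47 ± 0.16 (the authors' adjusted p = 0.00523). Relative to the median gene the value of smd-1 was -0.22. odc-1, spds-1 and oaz-1 did not pass the test in either fraction, with values from -0.23 to 0.09.

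Marker genes of the cell types in whole worms also moved between the strains. Their counts are to be read against the calls over all tested genes. Those were 18.6% higher and 27.9% lower in total RNA, and 14.8% and 23.9% in polysomal RNA. Summed over 4 epidermal collagen and molting markers, the level was 11.1 FPKM in total RNA of the wild type and 43.8 in that of the mutant-labelled strain, and 18.5 and 63.0 in polysomal RNA, and 3 of the 4 rose in each fraction. Summed over 5 oocyte and germline markers it was 1105 and 518 FPKM in total and 531 and 180 in polysomal RNA, with 5 of 5 lower in total and 4 of 5 in polysomal RNA. The 4 excretory cell markers summed to 59.0 and 68.3 FPKM in total and to 94.4 and 104 in polysomal RNA, with 2 of 4 higher and 1 of 4 lower in each fraction. The 4 intestinal markers summed to 351 and 460 FPKM in total and to 511 and 583 in polysomal RNA, with 2 of 4 higher in total and 0 of 4 in polysomal RNA. Markers of muscle and neurons are given in the same order. Body wall muscle markers summed to 1112 and 1224 FPKM in total and to 1857 and 1862 in polysomal RNA, with 1 of 3 higher in total and 0 of 3 in polysomal RNA. Pharyngeal muscle markers summed to 76.1 and 88.8 FPKM and to 131 and 126, with 1 of 3 and 0 of 3 higher. Neuron markers summed to 113 and 102 FPKM and to 82.4 and 70.1, with 1 of 4 higher in each fraction and 1 of 4 lower in polysomal RNA. Most of the neuron sum was snb-1, at 92.4 and 74.2 FPKM in total and 59.9 and 44.3 in polysomal RNA. The median log2 fold change of the 4 neuron markers was 0.34 in total and 0.15 in polysomal RNA. No marker was at 0 FPKM in any group. The part of these tissues in the results was not tested.

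The 5 genes whose pattern over the 4 groups was nearest to that of catp-3 were found by the distance between mean-centred values of log2(FPKM + 0.1), among 11261 entries with 1 gene name and at least 1 FPKM in every group. The nearest was T26H5.9 at a distance of 0.116, with 1.60, 2.02, 20.7 and 28.1 FPKM in wild-type total, wild-type polysomal, mutant-labelled total and mutant-labelled polysomal RNA. Next came parg-2, whose product cleaves poly(ADP-ribose), at 0.414, then F14F9.4 at 0.503, Y58A7A.5 at 0.544 and the cytochrome P450 gene cyp-14A5 at 0.579. cyp-14A5 had levels of 6.89, 11.97, 101 and 181 FPKM in the same order. Except for parg-2 on chromosome IV, all lie on chromosome V like catp-3, a chromosome that holds 17.8% of the entries compared. The likeness is a description over 4 group values.

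Most of the tested genes next to catp-3 were also higher in the mutant-labelled strain, by less than catp-3. Of 19 other annotated genes within 25 kb of its start, 5 were tested in each fraction, and 4 rose and 0 fell in each, against 18.6% and 14.8% of all tested genes called higher. In total RNA, sth-1 rose by 0.87 ± 0.22, ZC513.2 by 1.68 ± 0.33, fbxa-223 by 1.84 ± 0.34 and C09H5.7 by 0.75 ± 0.23 (adjusted p between 0.000207 and 0.00398). In polysomal RNA, sth-1 rose by 1.06 ± 0.23, ZC513.2 by 2.07 ± 0.34, str-131 by 1.89 and C09H5.7 by 0.61 ± 0.23 (adjusted p between 0.000207 and 0.0423). Apart from sth-1 and C09H5.7 these neighbours were low, with ZC513.2 at most 1.56 FPKM, fbxa-223 at most 1.72 and str-131 at most 0.352 in any group. str-146, a chemoreceptor family gene, was at 0.07 ± 0.38 and 0.71 ± 0.45 and did not pass (the authors' adjusted p = 0.884 and 0.159). The authors did not test the others, and 7 of the 19 were listed at 0 FPKM in every group. The window was chosen around a gene picked for its rise, so the count is a description.

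**Figure D5:**
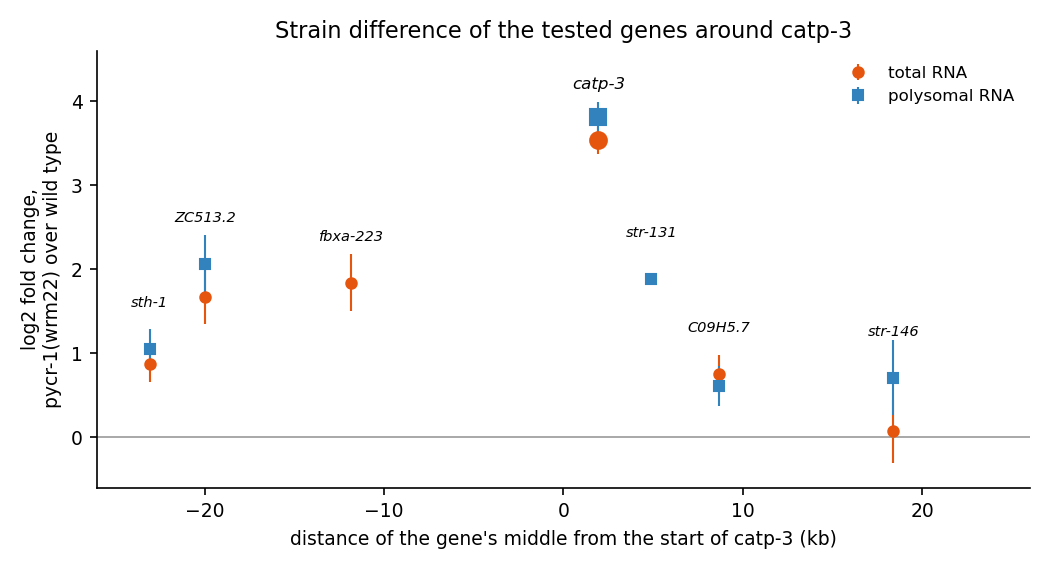
Deposited log2 fold change between the strains for the genes tested within 25 kb of catp-3, by the distance in kb of each gene's middle from the start of catp-3, in total RNA (circles) and polysomal RNA (squares), with bars of 1 standard error (none for str-131). catp-3, drawn larger, is at 3.53 and 3.81, and the highest neighbours are at 1.84 in total and 2.07 in polysomal RNA.

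Some members overlap other genes on the opposite strand, and it is not given in the sources used here whether reads were assigned by strand. The exons of catp-8 overlap those of wht-2 by 57 bp, and wht-2 was at 40.6, 15.2, 25.6 and 8.86 FPKM in wild-type total, wild-type polysomal, mutant-labelled total and mutant-labelled polysomal RNA. The exons of catp-6 overlap those of col-123 by 61 bp, and col-123 was at or below 0.249 FPKM in every group. The exons of catp-2 overlap those of the ncRNA gene C02E7.16 by 114 bp. catp-1 overlaps the protein-coding gene Y105E8A.27 by 2785 bp, with 0 bp shared between exons. The part of wht-2 reads in the catp-8 values was not tested.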

How the data were processed

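With build WBcel235, the submitters' processing notes name 4 tools, which are HISAT2 (2.1.0), Cuffdiff (2.2.1), StringTie (1.3.4d) and FastQC (0.11.7). Their settings are not given in the sources used here. The authors deposited 1 pooled FPKM per gene entry and group. The authors also deposited, for 6 pairs of groups, p-values and q-values, a log2 fold change and a test statistic, which is a score. The 2 pairs crossing strain and fraction were not reported as comparisons. Their test statistics entered the group variances behind the standard errors and the Wald test. The FPKM of mutant-labelled polysomal RNA was also read there. No value per library is given, so depth is unknown. The authors' deposited q-values equal Benjamini-Hochberg values over 91924 tests to within 5.24e-07, and 0.000207 is the smallest. That smallest value is shared by 24.1% of the tests.

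The gene members and lists were chosen with earlier results of these data known. Named genes were all members, each beta subunit, up to 4 genes per other list with the smallest q-value in total RNA, and the 5 patterns nearest to catp-3. The planned fallback for values per library was not needed.

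The standard error was computed as the log2 fold change over the test statistic, split into group variances and divided by the number of libraries, a choice made with the values known. For deposited p-values from 0.001 to 0.01 (2076 entries), the median was 0.00315 as deposited, 0.1 from the statistic and 0.00204 after the division. The Wald test used the undivided variances and treated the groups as independent. In that form 32 of 14116 genes had an unadjusted p under 0.05, and with the divided variances 548 did. How often the undivided form misses a difference in these data was not tested. Replicates were separate harvests per the labels' protocols. All 9 member IDs were found in the Ensembl 115 annotation. Python 3.11.15, pandas 2.3.3 and scipy 1.17.1 were used.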

Additional observations from a re-analysis of the deposited data

How the results depend on the processing

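No paired analysis was possible because each group is given as 1 pooled value, and for the same reason leaving out each replicate in turn was not run. A threshold of 0.01 in place of 0.05 was also applied to the 7 tested members other than catp-3. Calls between the strains in total RNA fell from 3 to 1. Those between polysomal and total RNA of the mutant-labelled strain fell from 3 to 2, since fewer values pass a stricter limit. The counts for the other comparisons stayed within 1.5 times, as did all counts with Benjamini-Hochberg over each comparison alone and with genes of at least 1 FPKM. Centring on the median gene with at least 5 FPKM moved the 32 log2 fold changes of the tested members by up to 0.35 and turned the sign of 5, none of which had passed the test. A pseudocount of 0.1 FPKM moved them by up to 0.020 and one of 1 FPKM by up to 0.19, with 0 sign changes. The unknown depth limits what can be said of catp-2.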

Other observations

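Strain differences were not spread evenly over the chromosomes. The link of this spread to the place of catp-3's nearest patterns was not tested. In total RNA, 22.1% of 3053 tested genes on chromosome V were higher in the mutant-labelled strain and 21.5% were lower, while on chromosome III 13.4% of 2381 were higher and 37.5% lower. On chromosome IV 21.7% of 2686 were higher and 27.1% lower in total RNA, against 18.6% and 27.9% of all tested genes. In polysomal RNA 517 of 2867 genes were higher and 547 lower on chromosome V, and 248 of 2254 were higher and 723 lower on chromosome III. Chromosome X had the smallest share of lower genes in both fractions, at 13.6% and 11.9%. These shares are descriptions of the authors' deposited calls, and they were looked at after the values of catp-3 were known.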
